A study of Mus musculus with 10 samples.

Results

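The genes described here encode the initiation and elongation factors of protein synthesis, with the 2 proteins of the nascent chain complex, in mouse blood neutrophils. They were chosen by symbol: genes starting with Eif1 to Eif6 without the Eif2ak kinases, genes starting with Eef1 or Eef2 without Eef2k and the Eef1akmt genes, and Naca and Btf3. This gave 47 members of 17097 genes that had a probe set with 1 symbol, and each gene was read from whichever of its probe sets had the highest 10-array mean. Of the 47 members, 44 had a mean log2 signal above 4.58, the midpoint of all probe set means, and were tested among 10734 genes. Eif2b5, Eif4e and Eef1aknmt lay below that level, and the last of these, a methyltransferase gene, was taken in by its symbol alone.

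The RNA came from 10 male C57BL/6 mice, 3 months old, after 9 days of acclimatization, with no treatment and no transgene named. Blood of 5 mice was kept apart, giving mice 1 to 5, while that of the 5 remaining animals was combined and divided into 5 portions, giving pool arrays 1 to 5. All 10 portions then went separately through magnetic isolation of Ly6G-labelled cells, RNA extraction, labelling that amplifies the RNA in 2 cycles, and an Affymetrix MG-430 PM array, which measures a gene through sets of short probes. The pool arrays are therefore repeats of 1 mixed sample, and their spread holds the noise of handling but no difference between animals. The isolated cells were 71.5 to 99.5% neutrophils by flow cytometry, a range the labels do not split by sample. In such bulk samples, fewer cells of a type and less RNA per cell cannot be told apart. Of 14 listed neutrophil markers 12 were above the filter, with mean signals of 8.43 to 13.08. Ly6g itself, the marker of the isolation, and Retnlg were not among the genes tested. Whether they were low or had no probe set with 1 symbol was not recorded. Of 13 listed B cell markers 10 were also above the filter, with means of 6.81 to 9.56.

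Protein synthesis starts when eIF2 brings the initiator tRNA to the small ribosomal subunit, a step held together by the large scaffold eIF3. The eIF4 factors attach the mRNA through its cap, eIF1, eIF1A and eIF5 take part in choosing the start codon, and eIF6 keeps the ribosomal subunits apart until joining. During elongation, eEF1A delivers aminoacyl-tRNA, the eEF1B subunits reload eEF1A with GTP, and eEF2 moves the ribosome along the mRNA. Naca and Btf3 encode the 2 chains of the nascent polypeptide-associated complex, which meets new proteins as they leave the ribosome. Blood neutrophils are short-lived cells that no longer divide and leave the bone marrow with many of their proteins already stored in granules.

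Mouse 5 stood apart over the whole array, and mouse 4 to a lesser degree. The upper end of the signals, taken at the percentile that 1 probe set in 20 exceeds, was 7.46 in mouse 5 and 8.72 to 9.25 in the other 9 arrays, and the correlation of mouse 5 with any other array was at most 0.800. Mice 4 and 5 shared 0.490% identical values, against at most 0.062% for the other pairs of arrays. The difference between the Actb probe sets at the 3′ and the 5′ end of the transcript was 4.57 in mouse 5 and 4.41 in mouse 3 and 1.28 to 2.72 in the others. For Gapdh the same difference was lowest in mouse 5, at 3.05, and mouse 4, at 3.38, with 6.16 in mouse 3 and 4.42 to 5.74 in the others. The poly-A spike controls on the array averaged 4.55 in mouse 5 and 5.68 to 8.09 in the other 9 arrays. The hybridization spike controls averaged 11.71 in mouse 5 and 9.00 to 10.66 in the other 9. The part of these array differences in the calls below was not tested. Each count is therefore given with all arrays, without mouse 5, and without mice 4 and 5.

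Most factors varied far more between the mice than between the portions of the pool. With all arrays, 39 of 44 members had a larger variance among the mice (limma, variance of the mice over the moderated variance of the pool, one-sided F test, adjusted p under 0.05), or 88.6%, where 66.9% of all 10734 genes tested were called. The median SD of the members was 1.18 over the mice and 0.34 over the pool arrays, and over all genes tested it was 0.57 and 0.23. Without mouse 5, 15 members passed, or 34.1%, against 19.5% of all genes. Without mice 4 and 5 no member passed, against 0.671% of all genes. At an unadjusted p under 0.05, 7 members, or 15.9%, and 951 of all genes, or 8.86%, passed in that setting. No member passed as less variable among the mice (0% of all genes; at an unadjusted p under 0.05, 0 members and 57 genes). These calls depended on the test: a plain F ratio, without moderation, called 22 of 44 members and 35.0% of all genes, and a Levene type test on absolute deviations called 0 members and 0 genes (before adjustment, p was under 0.05 for 2 members and 836 genes).

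Mouse 5 read below all other 9 arrays for 33 of 44 members, or 75%, a position that 43.8% of all genes held. It read above all of them for 2 members, against 23.3% of all genes. Mouse 4 read below mice 1 to 3 and every pool array for 27 members, or 61.4%, against 39% of all genes, and above them for 3 members, against 19%. Relative to the mean of mice 1 to 3, the median member differed by -1.06 in mouse 4 and -2.39 in mouse 5, where the median over all genes tested was -0.22 and -0.57. Quantile normalization of the arrays moved the medians of all genes to -0.01 and -0.07 and those of the members to -0.77 and -1.38. In that setting 31 members in mouse 4 and 37 in mouse 5 lay below mice 1 to 3, where 37 and 40 did as deposited. For comparison, 68 tested genes of cytosolic ribosomal proteins had medians of -1.70 in mouse 4 and -3.49 in mouse 5 as deposited, and 65 of them were more variable among the mice, 38 without mouse 5 and 0 without mice 4 and 5.

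**Figure D1:**
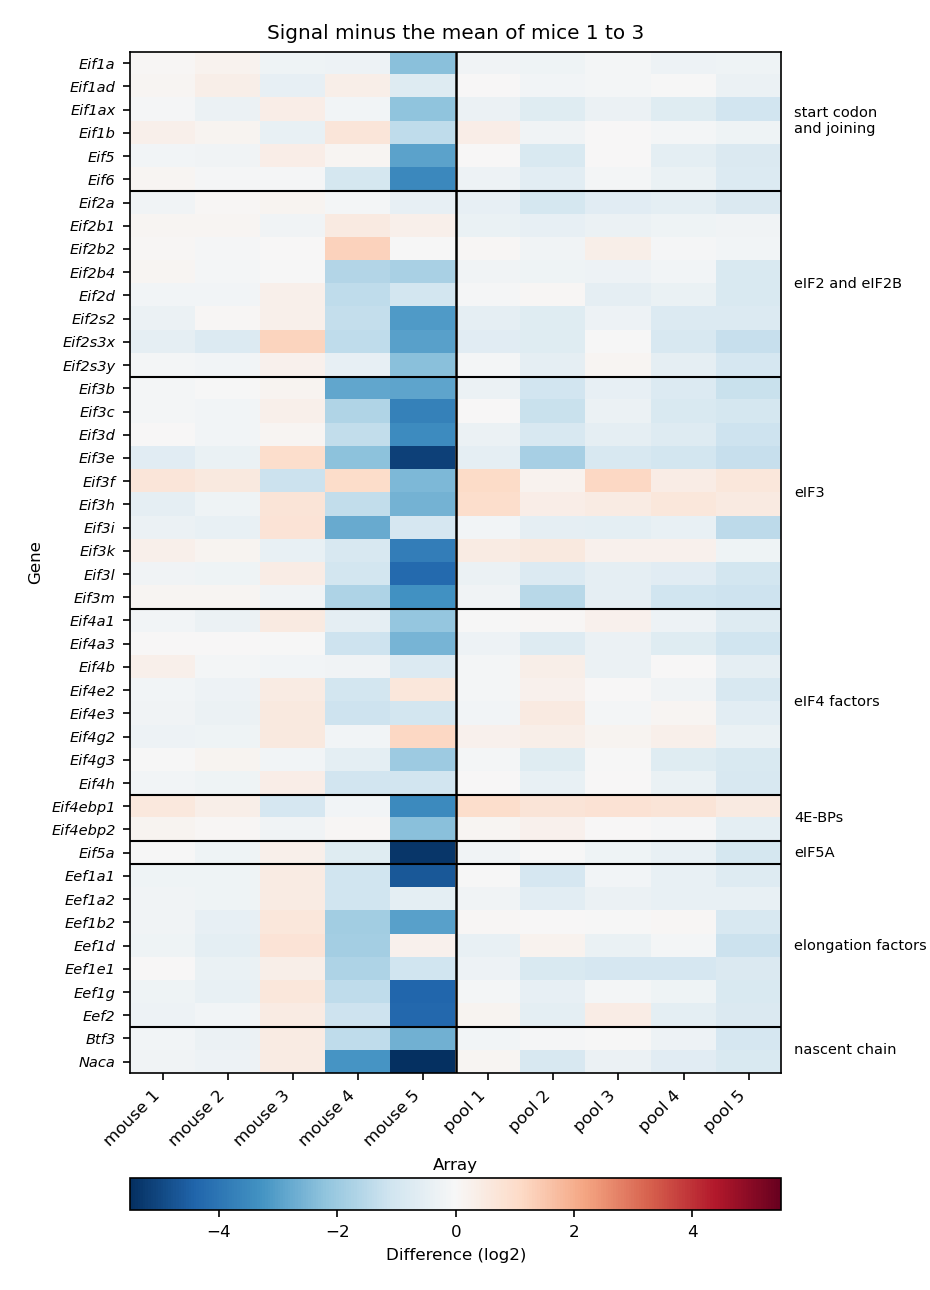
Signal of each of the 44 tested members minus its mean in mice 1 to 3 (log2 colour scale), by array, with genes grouped by role. The mouse 5 column is lower for 40 of 44 members and the mouse 4 column for 37, while the pool arrays lie near the level of mice 1 to 3.

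Many genes of the translation apparatus start their mRNA with a C and a run of pyrimidines, the terminal oligopyrimidine motif known for its control by mTOR. The RefSeq start regions of GRCm38.p6 gave 34 of the 44 tested members at least 1 annotated start, with 43 regions. Each was searched for C followed by at least 5 letters C or T, on the gene's strand, in the 25 bases before and the 25 bases from the annotated start. The shown regions contrast factors with such a run, in capitals, and 2 strongly variable members without one. They are Eef1a1 (chr9:78481700-78481749, minus strand), Eef2 (chr10:81176606-81176655, plus strand), Eif2s3x (chrX:94212627-94212676, minus strand), Eif3f (chr7:108934390-108934439, plus strand), Naca (chr10:128035321-128035370, plus strand) and Eef1b2 (chr1:63176806-63176855, plus strand), written 5′ to 3′ on the strand of the gene.
Eef1a1: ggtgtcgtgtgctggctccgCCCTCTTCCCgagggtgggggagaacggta
Eef2: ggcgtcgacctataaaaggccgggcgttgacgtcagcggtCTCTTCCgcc
Eif2s3x: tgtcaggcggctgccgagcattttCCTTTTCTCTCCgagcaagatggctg
Eif3f: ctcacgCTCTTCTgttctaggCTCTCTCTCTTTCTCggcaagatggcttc
Naca: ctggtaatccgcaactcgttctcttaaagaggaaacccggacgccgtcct
Eef1b2: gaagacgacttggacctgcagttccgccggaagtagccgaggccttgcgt

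The run was found in 14 of the 34 members, or 41.2%, in 40.3% of the 8640 tested genes with a start region, and in 35.0% of all 32851 regions in the table. Members with and without the run had nearly the same median difference from mice 1 to 3. In mouse 4 it was -1.05 with the run and -1.03 without it, and in mouse 5 it was -2.56 and -2.25. Over all tested genes it was -0.22 and -0.23 in mouse 4. Single members went both ways. Naca, Eef1b2 and Eif3b, which were low in both mice, had no such run in the windows searched. Neither had Eif1b and Eif2b1, at 0.67 and 0.48 in mouse 4. Eif3f and Eif2b2, the members with the highest values in mouse 4 relative to mice 1 to 3, had one. So did Eef1e1, Eif3m and Btf3, at -1.69, -1.68 and -1.40 in mouse 4. Second probe sets of Eif3f and Eif2b2 stood at -0.77 and 0.03 in mouse 4. The Naca window does hold a C followed by pyrimidines just before the annotated start, in a stretch shorter than the run searched. For Naca the absence of a run thus rests on the length required. A match in these windows is a description of the annotated sequence and not of a start site used in these cells.

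The elongation factors were lower in mouse 4 than in mice 1 to 3 and all pool arrays for 7 of 7 members, and mouse 3 was the highest of all 10 arrays for the same 7. All 7 were more variable among the mice, and 4 of them, Eef1a2, Eef1b2, Eef1d and Eef1e1, were called without mouse 5. Of all genes, 66.9% and 19.5% were called in these settings. Eef1a1, the main carrier of aminoacyl-tRNA, had signals of 12.32, 12.31, 13.01, 11.47 and 7.91 in mice 1 to 5, against 12.54, 11.63, 12.39, 12.14 and 11.85 for pool arrays 1 to 5. Mouse 5 lay 3.72 below the lowest pool array, and the SD was 2.03 over the mice and 0.38 over the pool arrays (log2 variance ratio 5.26, limma adjusted p = 8.84e-05, and 0.141 without mouse 5). Eef2, which moves the ribosome by a codon, had signals of 10.14, 10.24, 10.84, 9.27 and 6.09 in mice 1 to 5, against 10.55, 9.88, 10.83, 9.87 and 9.60 for pool arrays 1 to 5. Mouse 4 was again just below the pool and mouse 5 far below it, and without mouse 5 its adjusted p was 0.27 in limma.

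Among the subunits of the exchange factor eEF1B, the mice stood in the same order for Eef1b2 and Eef1g, and Eef1d differed from it in mouse 5. Eef1b2, its catalytic beta subunit, had signals of 11.45, 11.21, 12.27, 9.74 and 8.64 in mice 1 to 5, against 11.71, 11.68, 11.62, 11.72 and 10.77 for pool arrays 1 to 5. Mice 4 and 5 were both below the lowest pool array, and the adjusted p in limma was 0.000558 with all arrays and 0.0206 without mouse 5. Eef1g, the gamma subunit that anchors the complex, had signals of 10.33, 10.15, 11.20, 9.18 and 6.19 in mice 1 to 5, against 10.45, 10.13, 10.46, 10.32 and 9.71 for pool arrays 1 to 5, and without mouse 5 it just missed the threshold (limma adjusted p = 0.0512). Eef1d, the delta subunit, read 9.18, 8.88, 10.16, 7.55 and 9.65 in mice 1 to 5 and 8.22 to 9.58 in the pool, and thus mouse 5 lay above the pool and mouse 4 below it. A second Eef1d probe set read 8.92, 8.75, 9.07, 6.69 and 5.97 in the same mice, with mouse 5 the lowest. The set used for Eef1d is of a type that can match several transcripts, and the 2 sets put mouse 5 on opposite sides of mice 1 to 3.

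In the remaining pair of elongation genes mouse 4, not mouse 5, was the lowest array. Eef1a2, the form of eEF1A known from muscle and nerve cells, read 5.53, 5.52, 6.18, 4.64 and 5.21 in mice 1 to 5, against 5.54, 5.17, 5.42, 5.34 and 5.34 for pool arrays 1 to 5. Eef1e1, whose protein is part of the complex of tRNA synthetases, read 5.48, 5.09, 5.76, 3.75 and 4.36 in mice 1 to 5, against 5.18, 4.61, 4.51, 4.53 and 4.67 for pool arrays 1 to 5. Both were called with all arrays and without mouse 5 (limma adjusted p = 0.00174 and 0.005 for Eef1a2, 0.000639 and 0.00254 for Eef1e1). These calls rest on low signals, with means of 5.39 for Eef1a2 and 4.79 for Eef1e1 against the filter at 4.58. Mouse 4 read close to the filter for Eef1a2 and below it for Eef1e1. Naca had the largest SD of all members, 2.54 over the mice and 0.41 over the pool arrays, with signals of 9.38, 9.30, 10.03, 6.32 and 4.08 in mice 1 to 5, against 9.69, 8.71, 9.27, 8.93 and 8.74 for pool arrays 1 to 5. Mice 4 and 5 lay 2.40 and 4.63 below the lowest pool array, and the call held without mouse 5 (limma adjusted p = 7.32e-05 and 0.00214). Its partner Btf3 was low in the same mice, with signals of 10.10, 9.92, 10.71, 8.84 and 7.58 in mice 1 to 5, against 10.11, 10.16, 10.24, 9.96 and 9.33 for pool arrays 1 to 5. Btf3 was called with all arrays (limma adjusted p = 0.00158) and not without mouse 5 (0.0858), and the difference between the genes was not tested.

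**Figure D2:**
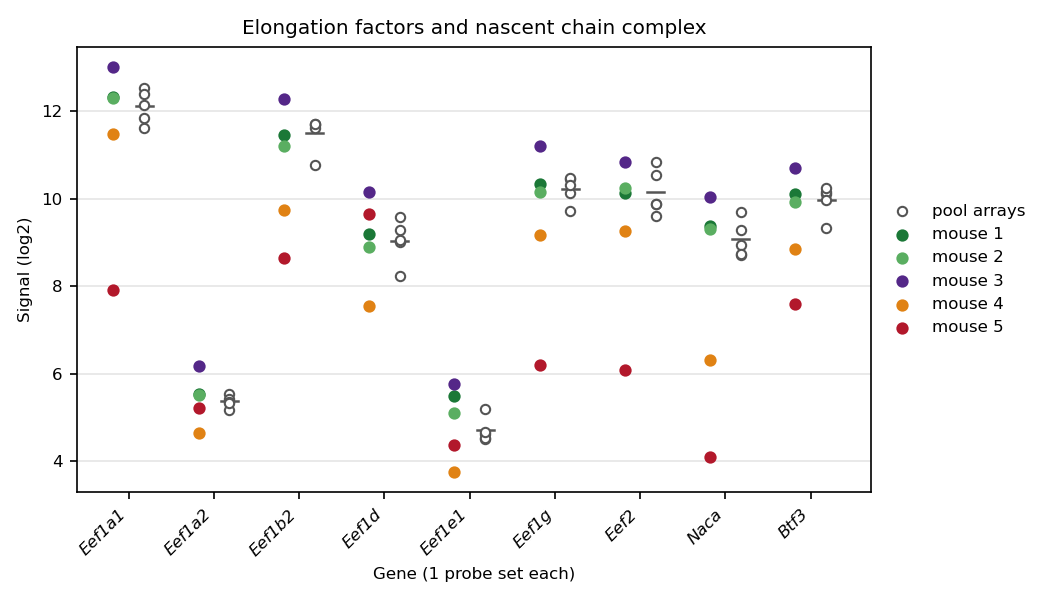
Signal (log2) of the 7 elongation factor genes, Naca and Btf3, 1 probe set each; filled points are mice 1 to 5, open points the 5 pool arrays, and short lines the pool means. Mouse 4 lies below every pool array for all 9 genes, and mouse 5 below every pool array for 7 of them, Eef1d and Eef1a2 excepted.

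All 10 tested subunits of eIF3 were more variable among the mice, and 5 of them, Eif3b, Eif3e, Eif3f, Eif3h and Eif3i, were called without mouse 5. The shares of all genes were 66.9% and 19.5%. Mouse 4 was below mice 1 to 3 and the pool for 9 of 10 subunits, and mouse 5 below all other arrays for 9 of 10. The median subunit differed from mice 1 to 3 by -1.51 in mouse 4 and -3.38 in mouse 5. Eif3b, one of the core scaffold subunits, read 7.71, 7.80, 7.96, 4.98 and 4.91 in mice 1 to 5, against 7.51, 6.75, 7.38, 7.08 and 6.61 for pool arrays 1 to 5. Mice 4 and 5 were alike and about 1.63 below the lowest pool array, and without mouse 5 the adjusted p of Eif3b in limma was 0.00208, the smallest of the members. Among mice 1 to 3 alone its SD was 0.13, below that of the pool arrays.

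Eif3e had the largest SD of the eIF3 subunits, 2.35 over the mice and 0.49 over the pool arrays, with signals of 9.29, 9.54, 10.87, 7.63 and 4.76 in mice 1 to 5, against 9.40, 8.09, 9.02, 8.89 and 8.64 for pool arrays 1 to 5. The mice spanned 6.11 log2 units from mouse 3 to mouse 5, and the pool arrays 1.32. Eif3l and Eif3k, 2 outer subunits that bind each other, had most of their spread in mouse 5. Eif3l read 8.35, 8.28, 8.95, 7.50 and 4.24 in mice 1 to 5 and 7.53 to 8.21 in the pool, and Eif3k read 9.04, 8.93, 8.37, 7.89 and 4.97 and 8.56 to 9.32. Neither was called without mouse 5 (limma adjusted p = 0.122 and 0.243). Eif3h read 8.48, 8.73, 9.69, 7.61 and 6.36 in the mice and 9.32 to 9.95 in the pool, and thus mice 1 and 2 also lay below the pool arrays.

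Eif3i and Eif3f showed how far a result can rest on the probe set. Eif3i read 9.46, 9.35, 10.51, 6.98 and 8.85 in mice 1 to 5 and 8.34 to 9.63 in the pool, with mouse 4 the lowest array. A second Eif3i probe set read 8.52, 8.51, 9.69, 6.73 and 4.44 in the same mice, with mouse 5 the lowest. Eif3f read 11.93, 11.78, 10.08, 12.29 and 8.80 in the mice and 11.48 to 12.39 in the pool. Its second probe set read 10.86, 10.74, 11.53, 10.27 and 6.81. Mouse 3 was thus the lowest of mice 1 to 4 in one Eif3f set and the highest in the other, and only the low reading of mouse 5 was shared.

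**Figure D3:**
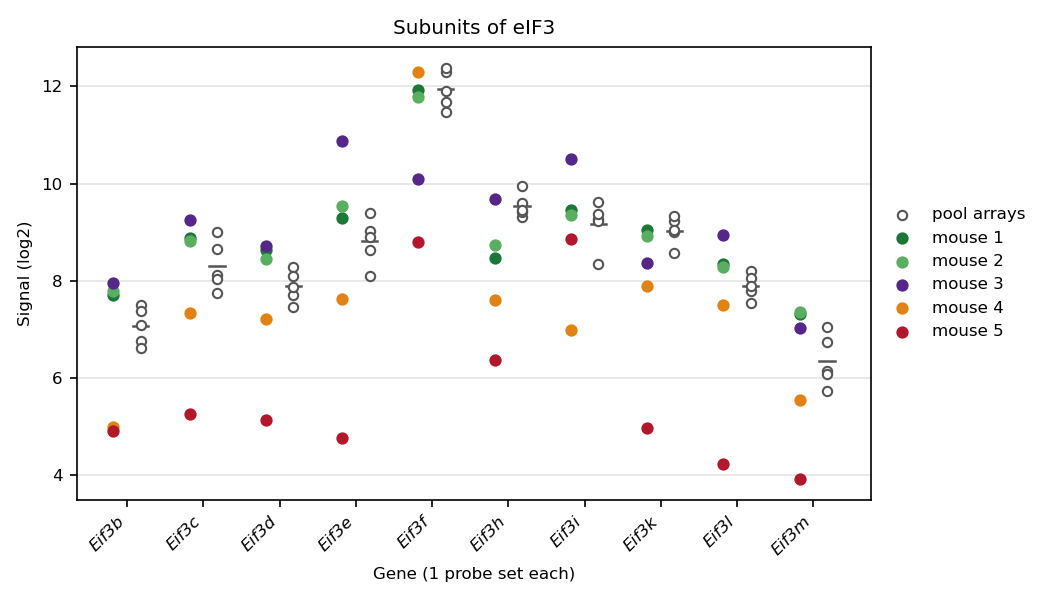
Signal (log2) of the 10 tested eIF3 subunit genes, 1 probe set each; filled points are mice 1 to 5, open points the 5 pool arrays, and short lines the pool means. Mouse 4 lies below every pool array for 9 of the 10 genes, Eif3f excepted, and mouse 5 for 9, Eif3i excepted.

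Among the 8 tested genes of eIF2 and its exchange factor eIF2B, listed here with Eif2a and Eif2d, 6 were more variable among the mice and 5 without mouse 5. That was 75% and 62.5%, against 66.9% and 19.5% of all genes. Eif2s2, the beta subunit of eIF2, read 6.86, 7.23, 7.43, 5.87 and 4.06 in mice 1 to 5, against 6.70, 6.50, 6.89, 6.43 and 6.44 for pool arrays 1 to 5. Mouse 5 was 2.37 below the lowest pool array and mouse 4 0.57 below it (limma adjusted p = 9.61e-05, and 0.0188 without mouse 5). The gamma subunit is encoded on both sex chromosomes, and the 2 copies are so alike that probes may read both. Eif2s3x, the X-linked copy, read 7.81, 7.55, 9.50, 6.89 and 5.31 in mice 1 to 5, against 7.68, 7.63, 8.24, 7.40 and 7.02 for pool arrays 1 to 5. Mouse 3 exceeded mice 1 and 2 by 1.82 and the highest pool array by 1.25. Eif2s3y, the Y-linked copy, read 9.57, 9.53, 9.93, 9.22 and 7.36 in the mice and 8.76 to 9.80 in the pool, and thus mouse 5 alone left the range of the pool by more than 1 log2 unit. Without mouse 5, Eif2s3x was called and Eif2s3y was not (limma adjusted p = 0.0173 and 0.782), a difference that was not itself tested. With all arrays the call of Eif2s3y was lost after quantile normalization (limma adjusted p = 0.116).

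The subunits of eIF2B, which reloads eIF2 with GTP, did not share 1 order of the mice. Eif2b4, the delta subunit, read 7.98, 7.77, 7.85, 6.28 and 6.07 in mice 1 to 5, against 7.69, 7.64, 7.58, 7.70 and 7.04 for pool arrays 1 to 5, and mice 4 and 5 were both below the pool. Eif2b2, the beta subunit, read 6.27, 6.13, 6.22, 7.46 and 6.17 in mice 1 to 5, against 6.25, 6.00, 6.55, 6.13 and 6.05 for pool arrays 1 to 5. Its spread was a single high value in mouse 4, and a second Eif2b2 probe set did not show it, with a difference of 0.03 from mice 1 to 3 against 1.25 in the set used. Eif2b1, the alpha subunit, read 6.66, 6.64, 6.33, 7.02 and 6.81 in the mice and 6.11 to 6.35 in the pool and was not called as deposited (log2 variance ratio 0.84, limma adjusted p = 0.237), but was after quantile normalization (3.90, 0.000841). Eif2a, which codes for a separate tRNA-binding factor and not for a subunit of eIF2, had the smallest SD among the mice of all members, 0.23 over the mice and 0.21 over the pool arrays (limma adjusted p = 0.246). Its signals were 5.22, 5.47, 5.59, 5.30 and 5.00 in mice 1 to 5, with each mouse above the highest pool array at 4.97 as deposited, mouse 5 by only 0.02. Eif2d, a factor that can place tRNA without eIF2, was the other call without mouse 5, at 0.0489 in limma.

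The 6 genes grouped by symbol as factors of start codon choice and subunit joining took in Eif1ad by its symbol alone. All 6 were called with all arrays and 0 of 6 without mouse 5, against 66.9% and 19.5% of all genes. In the sets used, mouse 5 was below all other arrays for 6 of 6, while mouse 4 was below mice 1 to 3 and the pool for 1 of 6, Eif6. Eif5, the GTPase partner of eIF2, read 10.07, 10.02, 10.61, 10.35 and 7.31 in mice 1 to 5, against 10.26, 9.38, 10.25, 9.68 and 9.43 for pool arrays 1 to 5. Mouse 4 lay inside the range of mice 1 to 3 and mouse 5 was 2.08 below the lowest pool array. Eif6, which holds the large subunit apart, read 9.05, 8.91, 8.91, 8.00 and 5.41 in the mice and 8.20 to 8.85 in the pool. Eif1a read 7.12, 7.25, 6.84, 6.81 and 4.78 and 6.78 to 6.98, the latter the narrowest pool spread of the members (SD 0.08). The 2 genes Eif1a and Eif1ax code for near-identical forms of eIF1A, so their probe sets may share signal. Other sets above the filter placed mouse 4 otherwise for Eif5 and Eif6. In 1 of the other Eif5 sets mouse 4 read 8.84, below the pool at 9.43 to 10.00. In a second Eif6 set mice 4 and 5 read 6.78 and 7.25, above the pool at 5.82 to 6.04.

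In the probe sets used, the cap-binding and helicase factors of the eIF4 group had the lowest median SD among the mice of the groups. Of 8 tested, 5 were more variable among the mice and 0 without mouse 5. That was 62.5% and 0%, against 66.9% and 19.5% of all genes. Their median SD was 0.66 among the mice and 0.37 in the pool. The sets of a gene differed in this. The SD over the mice ran from 0.34 to 1.86 among 5 Eif4h sets above the filter, and was 0.62 in the set used. Among 4 Eif4g2 sets it ran from 0.26 to 2.51, with 0.62 in the set used. Eif4a1, the helicase that unwinds the mRNA leader, read 7.62, 7.47, 8.27, 7.31 and 5.64 in mice 1 to 5, against 7.76, 7.86, 8.03, 7.51 and 7.07 for pool arrays 1 to 5. Eif4a3, a related helicase of the exon junction complex, read 8.67, 8.67, 8.62, 7.51 and 6.10 in the mice and 7.58 to 8.38 in the pool, and mice 1 to 3 differed by only 0.06. Eif4g3, a scaffold of the cap-binding complex, read 8.57, 8.73, 8.42, 8.06 and 6.60 and 7.73 to 8.54. Its call was lost after quantile normalization (limma adjusted p = 0.124) and with the probe set of middle mean (0.457). In the sets used for these 3 genes mouse 5 was the lowest array, and mouse 4 was at most 0.07 below the lowest pool array. Eif4b, a helper of the helicase, was not called and read 8.32, 7.92, 7.90, 7.85 and 7.28 in the mice and 7.56 to 8.35 in the pool (log2 variance ratio 0.52, limma adjusted p = 0.327). A second Eif4b probe set, the one of middle mean, read 7.62, 7.84, 9.04, 6.71 and 5.89 in the mice and was called (4.11, limma adjusted p = 0.00103).

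The eIF4E-binding proteins bind eIF4E and hinder the start of cap-dependent translation when mTOR is inactive. Eif4ebp1 read 9.93, 9.66, 8.41, 9.19 and 5.83 in mice 1 to 5, against 10.32, 10.05, 10.12, 10.04 and 9.83 for pool arrays 1 to 5. Mouse 3 was the second lowest array and mouse 5 the lowest, a different order from that of most members, and the pool arrays stayed within 0.49 of each other. Its second probe set gave another order of the mice, 5.34, 5.12, 4.62, 6.41 and 6.91, so that mice 4 and 5 read highest there. Eif4ebp2 read 9.43, 9.33, 9.07, 9.34 and 6.99 in mice 1 to 5, against 9.40, 9.53, 9.29, 9.23 and 8.76 for pool arrays 1 to 5, and mouse 5 stood apart from all others. Both were called with all arrays and neither without mouse 5 (limma adjusted p = 0.082 and 0.944), and that of Eif4ebp2 was also lost with its probe set of middle mean (0.389). Eif5a, the hypusine-carrying factor that helps the ribosome past difficult stretches, read 10.97, 10.74, 11.29, 10.34 and 5.67 in mice 1 to 5, against 10.81, 10.98, 10.75, 10.60 and 10.05 for pool arrays 1 to 5. Mouse 5 was 4.38 below the lowest pool array, and without it the log2 variance ratio went from 5.51 to 0.41. A second Eif5a probe set read 8.22, 8.13, 7.46, 7.67 and 6.55 in the mice and 7.21 to 7.67 in the pool, with mouse 5 less far below.

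Mice 4 and 5 did not share 1 profile over the members. In mouse 5 the differences from mice 1 to 3 ran from -5.49 in Naca to 1.14 in Eif4g2, a scaffold for translation without the cap. In mouse 4 they ran from -3.26 in Naca to 1.25 in Eif2b2. Eif5a was -5.33 in mouse 5 and -0.66 in mouse 4, and Eif3i -0.93 and -2.79. Their second probe sets gave -1.39 and -0.27 for Eif5a and -4.47 and -2.18 for Eif3i. Medians by role rest on the probe set used for each gene. In mouse 4 the median difference was -2.33 for the nascent chain pair, -1.51 for eIF3, -1.38 for the elongation factors and -0.88 for eIF2 and eIF2B. It was -0.76 for the eIF4 group, -0.04 for the eIF4E-binding proteins and -0.01 for the start codon and joining factors, the last pair above the median of -0.22 over all genes; after quantile normalization that pair turned to 0.16 and 0.28, and the others stayed below 0. In mouse 5 the same 7 medians were -4.07, -3.38, -3.00, -1.41, -1.03, -2.90 and -2.25. Quantile normalization turned the sign in mouse 4 for Eif1a, Eif1ax, Eif2a, Eif4b, Eif4ebp1 and Eif4g2, and in mouse 5 for Eif2b2, Eif3i and Eif4b, while the 7 medians in mouse 5 stayed below 0 (-0.17 for the eIF4 group and -0.63 for eIF2 and eIF2B, against -3.38 for the nascent chain pair).

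**Figure D4:**
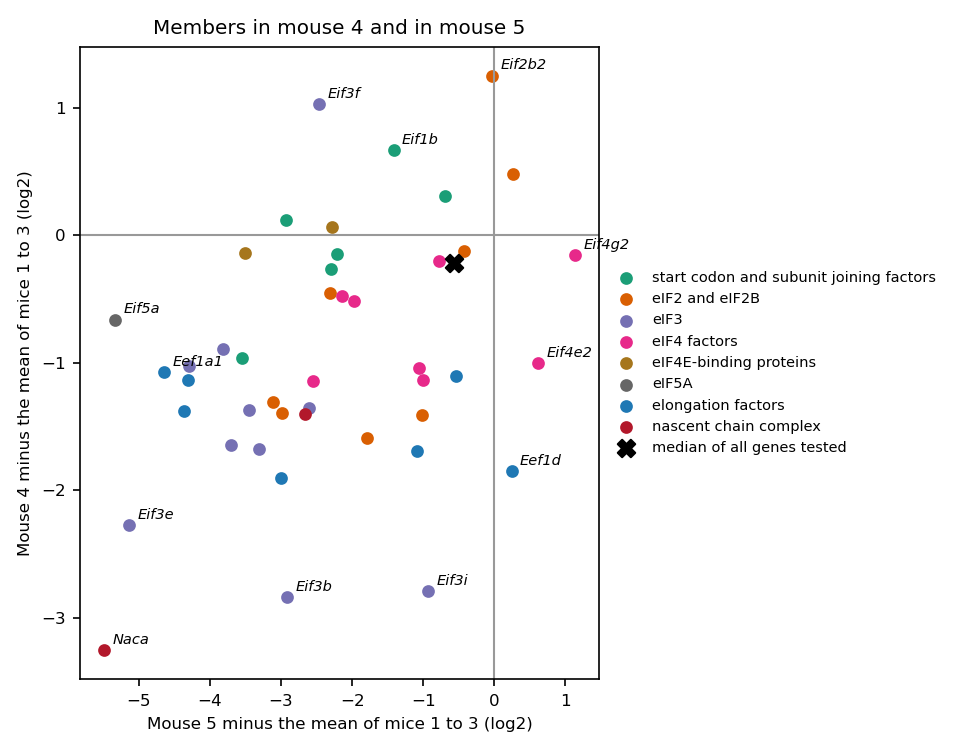
Difference of each member from its mean in mice 1 to 3 (log2), mouse 5 on the horizontal and mouse 4 on the vertical axis, coloured by role, with the median of all genes tested as a cross. Most members lie below and to the left of the cross at -0.57 and -0.22, and Naca lies farthest out at -5.49 and -3.26.

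Markers of B cells and of MHC class II cells were also low in mice 4 and 5, and lowest in mouse 4. The level of the 10 B cell markers, averaged after subtracting each gene's own mean signal, was 0.93, 0.91, 1.68, -2.59 and -1.75 in mice 1 to 5 and -0.21 to 0.85 in the pool, and mouse 4 was below mice 1 to 3 and the pool for 10 of 10. The level of the 44 members on the same measure was 0.41, 0.35, 0.68, -0.45 and -1.83 in the mice and -0.21 to 0.43 in the pool. For 8 of 10 dendritic cell and MHC class II markers it was 0.60, 0.50, 0.65, -1.54 and -1.03 in the mice and -0.10 to 0.41 in the pool. For the 12 neutrophil markers it was -0.30, -0.39, 1.12, -0.13 and -2.68 in the mice and -0.01 to 0.90 in the pool, and thus they were low in mouse 5 and not in mouse 4. For 5 of 13 T cell markers it ran from -0.16 to 0.41 over the mice and from -0.03 to 0.06 in the pool, and for 6 of 8 NK cell markers from -0.55 in mouse 4 to 0.07, against 0.02 to 0.22 in the pool. For 7 of 10 monocyte markers the level was -0.62 to 0.13 in the mice, lowest in mouse 5, and for 3 of 8 erythroid markers -1.58 to 0.97, lowest in mouse 4. The 1 eosinophil marker above the filter, of 5, stood at -2.66 in mouse 5. The part of these markers in the members' differences was not tested.

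Mouse 3 was the highest of all 10 arrays for 26 of 44 members, or 59.1%, where 21.1% of all genes were. Mouse 3 was below mice 1 and 2 and the pool for 5 members, against 20% of all genes. The median member was 0.44 above the mean of mice 1 and 2 and the median of all genes 0.0037 above it, and the members' median stayed above 0 after median centring and quantile normalization. Among the roles, mouse 3 was highest for 7 of 7 elongation factors, for Naca and Btf3, for 6 of 10 eIF3 subunits and for 5 of 8 genes of eIF2 and eIF2B. It was highest for 3 of 8 eIF4 factors and 2 of 6 start codon and joining factors. Mouse 3 also had the highest average level of B cell markers and of neutrophil markers. It was the highest array for 7 of the 10 B cell markers but for only 3 of the 12 neutrophil markers. Its level of platelet markers was the lowest, -1.91 over 8 of 8 markers, where mice 1, 2, 4 and 5 had -1.42 to -0.29 and pool arrays 0.78 to 1.18. The part of these markers, and of the wide Actb and Gapdh differences in mouse 3, was not tested.

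Among mice 1 to 3, the median SD of the members was 0.35, and among the 5 pool arrays it was 0.34. Over all genes it was 0.19 and 0.23. A sample SD of 3 arrays tends to come out lower than one of 5, so these medians do not show that the spreads were equal. The 7 members with an unadjusted p under 0.05 were Eif2s3x, Eif3f, Eif3h, Eif3e, Eif4ebp1, Eef1a2 and Eif1ad, and none passed the adjustment (smallest limma adjusted p = 0.195, in Eif3f). The SD of mice 1 to 3 was below that of the pool arrays for 20 of the 44 members. Against the moderated pool variance the ratio was below 1 for 19, among them Eif4a3 with a log2 variance ratio of -6.83. The shares of all genes were not counted, and with 3 mice such counts do not show a smaller spread.

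Different probe sets of one gene often disagreed about mouse 5. Of the 44 members, 22 had more than 1 probe set above the filter, and the difference of mouse 5 from mice 1 to 3 spread by a median of 2.39 between the sets of a gene. The spread exceeded 1 log2 unit in 19 of these genes in mouse 5 and in 12 in mouse 4, where its median was 1.16. The sign differed between sets in 5 genes for mouse 5, Eif4g2, Eif4ebp1, Eif6, Eif4e2 and Eef1d, and in 10 genes for mouse 4. In Eif4g2 the set used read 11.30, 11.34, 12.09, 11.42 and 12.71 in mice 1 to 5, with mouse 5 the highest, and another read 9.26, 9.46, 9.59, 8.69 and 3.69, with mouse 5 the lowest. In Naca both sets were low in mice 4 and 5, by -3.26 and -1.96 in mouse 4 and by -5.49 and -3.05 in mouse 5. The set used was not lower in mouse 5 for 4 members, Eif2b1, Eef1d, Eif4e2 and Eif4g2, and each of the last 3 had another set that was. Where the set with the middle mean was taken for each gene instead, 38 members passed the filter and 29 of them, or 76.3%, were called, against 65.2% of all 8402 genes tested in that setting.

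**Figure D5:**
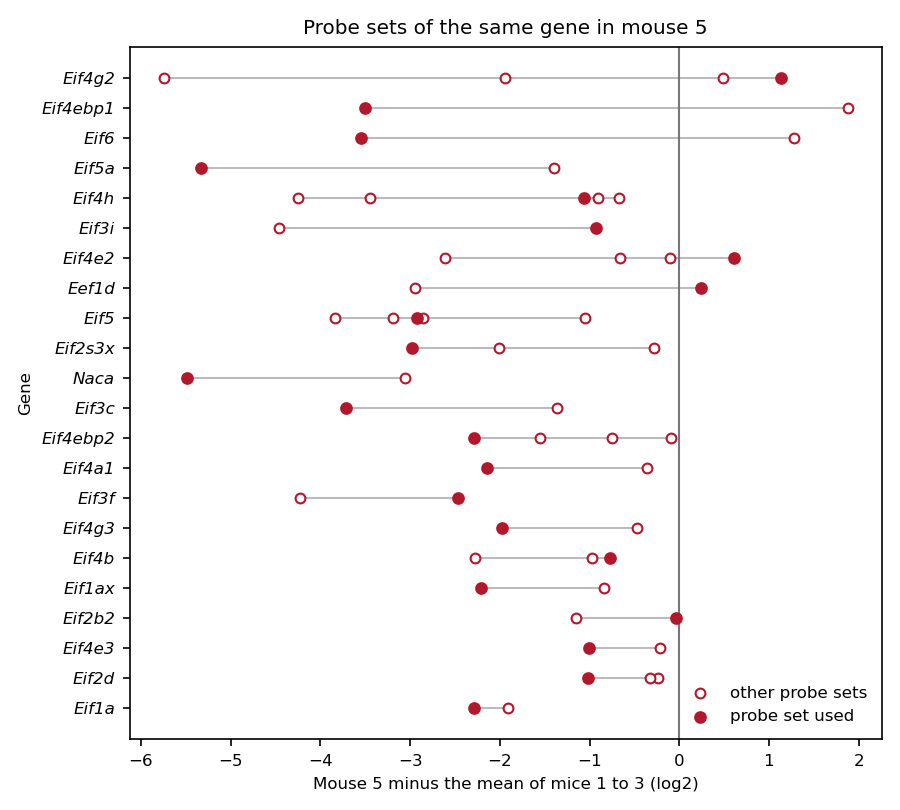
Difference of mouse 5 from the mean of mice 1 to 3 (log2) for each probe set above the filter, for the 22 members with more than 1; filled points mark the set used and open points the others. The sets of 5 genes lie on both sides of 0, with Eif4g2 the widest from -5.75 to 1.14.

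The mean of the mice and that of the pool were compared with the error taken from the mice alone, since the pool is 1 mixed sample. No member passed (limma, two-sided, 0 of 44, where 0% of all genes passed; at an unadjusted p under 0.05, 1 member, Eif2a, and 568 genes did). An ordinary limma fit of both groups, which counts the pool arrays as separate samples, called 0 members and 288 genes. Eif2a, the member with the smallest p, was 0.57 higher in the mice (SE 0.19, limma adjusted p = 0.584), with 5 of 5 mice above all 5 pool arrays as deposited. Mouse 5 was above the highest of them, pool array 1, by only 0.02. Its median over all probe sets was 4.74, against 4.51 in that array. Eif3h differed by -1.37 (SE 0.71) and Eif4ebp1 by -1.47 (SE 0.88), both with a limma adjusted p of 0.999. Without mice 4 and 5 the median member was 0.35 higher in mice 1 to 3 than in the pool, with 39 of 44 above it, where the median of all genes was 0.04 and 54.5% were above. In that setting 448 genes passed and no member did (smallest limma adjusted p = 0.0553, in Eif3m). Platelet markers separated the same groups, from -1.91 to -0.29 in mice 1 to 3 and 0.78 to 1.18 in the pool, and their part was not tested.

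Genes that act on the factors were read from 5 lists. The list of kinases and phosphatase subunits acting on the factors also held Gcn1 and Impact, which are neither. Of its 12 genes, 10 were tested, 6 were more variable among the mice, and 2, Eif2ak4 and Gcn1, were called without mouse 5. Of 13 mRNA-binding partners of the initiation factors, 11 were tested, 10 called and 2 without mouse 5. Of 16 mTOR pathway genes, 10 were tested, 7 called and 4 without mouse 5. Of 17 modifying enzymes, 7 were tested, 4 called and 1 without mouse 5, and of 13 genes listed for termination, recycling and rescue, 7, 6 and 4. These last 4 took in Mtif2, which is an initiation factor. Together 33 of 45 tested genes were called, 13 without mouse 5 and 0 without mice 4 and 5, or 73.3% and 28.9% in the first settings against 66.9% and 19.5% of all genes. The 4 with the smallest adjusted p without mouse 5 were Dph5, an enzyme of the diphthamide mark on eEF2, Eif2ak4, the kinase GCN2 that senses amino acid shortage, Mtif2, the mitochondrial initiation factor, and Pdcd4, an inhibitor of the helicase eIF4A. Dph5 read 5.81, 5.79, 6.86, 4.21 and 5.25 in mice 1 to 5 and 5.04 to 5.71 in the pool. Eif2ak4 read 5.35, 5.01, 5.70, 3.46 and 4.19 in mice 1 to 5 and 4.43 to 5.17 in the pool. Mouse 4 was the lowest array of both. Mtif2 read 5.05, 4.92, 5.56, 3.78 and 3.73 in mice 1 to 5 and 4.61 to 5.11 in the pool. Pdcd4 read 9.18, 9.25, 10.85, 7.03 and 5.36 in mice 1 to 5 and 8.48 to 9.47 in the pool.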

How the data were processed

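The authors deposited log2 signals, 1 for each of 45141 probe sets and 10 arrays, made with RMA per the submitters' processing notes; its version, background step and whether the arrays were processed together are not given in the sources used here. RMA signals are relative, so a level of one probe set was not set against that of another. The array's annotation table paired 28898 probe sets with 1 gene symbol, 551 with several and 15588 with none, and 104 control probe sets were left out. Genes whose mean signal exceeded 4.58, the midpoint of the probe set means, were tested with limma 3.58.1 in R 4.3.3. The variance of the mice was divided by the pool's variance, moderated with a trend on the mean, and tested by F, one-sided in each direction. The means were tested with the moderated variance of the mice as the error of both groups. P-values were adjusted over all 10734 genes by Benjamini and Hochberg, with a threshold of 0.05. Code was tested on simulated data. The labels call the mice biological and the pool arrays technical replicates, so a p-value for the mean rests on 5 mice and 1 pool, and the number of arrays limits the precision. Replicate numbers did not pair the groups, since the deviations of same-numbered arrays correlated at -0.26 to 0.50.

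The members, the gene lists and the tests were chosen with earlier results of these data known. Named in full were the tested Eef1 and Eef2 genes, Naca and Btf3, the 3 members of each role with the largest SD among the mice, up to 12 members called without mouse 5, the 3 with the smallest SD and the 3 with the smallest p for the mean, 33 in all, and up to 4 pathway genes called without mouse 5; other members were named after their values were seen. Alternatives were no filter, a higher filter, quantile normalization, median centring, another probe set for each gene, no probe sets of the types open to several transcripts, no trend, a plain F ratio, a Levene type test, an ordinary limma fit, a replicate block, and each array left out. The window and the pyrimidine run searched in the RefSeq start regions were set after the sequences, and not the values, were seen. Figures were drawn with matplotlib 3.10.9 in Python 3.11.15.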

Additional observations from a re-analysis of the deposited data

Results flagged for a closer look

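The mice and the pool arrays of the 33 members named by rule made 66 groups. Each was searched for an array whose gap to its nearest neighbour was large for the range of its group. The cutoff is one that chance passes about 1 time in 20. Many of the 33 were named for their spread in these data, so that rate does not apply here. Such an array was found in 11 groups. Mouse 5 was the low array in 7 of them: 4.78 for Eif1a, 7.36 for Eif2s3y, 4.97 for Eif3k, 6.99 for Eif4ebp2, 7.31 for Eif5, 5.67 for Eif5a and 5.41 for Eif6. In Eif5a the next mouse stood at 10.34, and in Eif4ebp2 at 9.07. Mouse 4 was the high array for Eif2b2, at 7.46 against 6.27 in the next mouse. In the pool, array 5 was low for Eef1b2, at 10.77 against 11.62, and for Eif2b4, at 7.04 against 7.58, and array 1 was high for Eef1e1, at 5.18 against 4.67. What set these arrays apart was not tested.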

How the results depend on the processing

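The count of 39 members more variable among the mice lay between 29 and 39 with no filter, a higher filter, either other scaling, another probe set per gene, sets open to several transcripts left out, or no trend, or 76.3 to 90.0% of the members tested against 60.5 to 78% of all genes, the latter highest after quantile normalization, where the members' share was 88.6%. The count for all genes went to 10952 with no filter and 4437 with the higher one. A plain F ratio called 22 members and 3760 genes. A Levene type test called 0 and 0 (2 members and 836 genes at an unadjusted p under 0.05). Leaving out 1 array at a time gave 15 to 41 members and 2092 to 7568 genes, the lowest without mouse 5, and leaving out mice 4 and 5 gave 0 and 72. Without mice 4 and 5 the log2 variance ratio turned negative for Eef2 (-0.26), Eif1a (-0.032), Eif2b1 (-0.043), Eif2b2 (-3.21), Eif2b4 (-2.93), Eif2s3y (-1.52), Eif3b (-2.69), Eif4a3 (-6.83), Eif4b (-0.78), Eif4ebp2 (-1.61), Eif4g3 (-2.24), Eif5 (-0.43), Eif5a (-0.67) and Eif6 (-3.91). With 1 array left out, the ratio ranged from -0.11 to 1.22 for Eif2a, -0.22 to 1.25 for Eif2b1, -3.67 to 3.09 for Eif2b2, -0.71 to 3.74 for Eif2s3y, -1.03 to 1.00 for Eif4b, -2.15 to 4.47 for Eif4ebp2, -0.50 to 3.08 for Eif4g3 and -0.94 to 4.04 for Eif5. The mean difference of Eif4ebp1 turned to 0.41 with the probe set of middle mean. No member was called for the mean in any setting run; with the replicate block, and with the ordinary fit, the counts were 0 members, and 188 and 288 genes. The block changed no call of a member. The causes were not tested, beyond the fewer mice in the settings that leave arrays out.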
